A study of Mus musculus with 2 samples.

Results

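Collagens and laminins are the structural chains of the extracellular matrix, and 44 of their genes were followed here across the cells of the mouse basolateral amygdala. They were all those of either deposited table whose symbol names a collagen or laminin chain and that had at least 20 UMIs (unique molecules) over both tables: 44 of 55 such gene columns, among 25120 genes in all. They comprised 36 collagen and 8 laminin genes. The genes were thus chosen by their summed UMIs, which are given as a description only. Just inside the threshold lay Col4a3 with 30 UMIs and Col14a1 with 36, and just outside it Col4a6 with 18 and Lamb3 with 17. The remaining genes left out had 2 to 11 UMIs each.

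The cells came from adult C57BL/6 mice given vehicle, or FGF21 at 1 mg/kg, daily over 3 days. FGF21 is an endocrine growth factor made chiefly in the liver. The series concerns cells expressing KLB, the co-receptor of FGF21, and the cells were sorted by flow cytometry for the red fluorescent protein tdTomato and for a viability dye, with the driver of the reporter not spelled out in the labels. Basolateral amygdala of 3 mice per treatment was pooled and digested with pronase, a mix of proteases, in the presence of actinomycin D, which blocks transcription. Each pool gave 1 library, so the 2 libraries are compared and not the treatments, no p-value was computed, and every interval below is a 95% interval that covers counting error only.

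Most vertebrate collagens are trimers of alpha chains. Fibrillar collagens such as types I and III build the tensile fibres of connective tissue, fibril-associated collagens decorate those fibres, and type IV collagen forms the sheet-like network of basement membranes. Laminins are trimers of an alpha, a beta and a gamma chain that assemble into a second network of the same membranes and bind integrins and dystroglycan on cells. In the brain, basement membranes surround the vessels, where endothelial cells, pericytes, smooth muscle, perivascular fibroblasts and astrocyte endfeet meet, whereas the tissue between the cells holds little fibrillar collagen.

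The filters left 2337 vehicle cells (median depth 4232 UMIs) and 1935 FGF21 cells (6838 UMIs), and the 44 genes gave 13033 and 13043 of their UMIs (0.123% and 0.0926% of 10582609 and 14085005). The cells were clustered without the collagen and laminin genes and named from markers that include none of them, so the genes described do not define the classes. Fibroblast-like (19 vehicle and 9 FGF21 cells), endothelial-like (32 and 16), choroid plexus-like (28 and 16) and neuron-like cells (9 and 18) were few, and their levels are given but not compared between libraries. The libraries held most of their microglia-like cells in different clusters: the cluster led by Cysltr1, Abca9 and P2ry12 was 98.5% vehicle cells and that led by Cebpa, Anxa3 and Cd180 was 97.5% FGF21 cells. Oligodendrocyte precursor-like cells were likewise split between a cluster of 83.7% vehicle cells and one of 95.1% FGF21 cells. The 2 tables shared 12 barcode numbers.

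Fibroblast-like cells carried the highest summed level of the 44 genes, followed by mural-like cells (pericytes and smooth muscle of small vessels) and endothelial-like cells. Levels are UMIs of a gene per 1000000 UMIs of the class (CPM). They compare a gene between classes or libraries and not different genes with each other. The summed level in fibroblast-like cells was 15271 CPM (95% interval 14364 to 16219) for vehicle and 15874 CPM (14652 to 17171) for FGF21. Mural-like cells had 5337 CPM (5141 to 5539) and 4938 CPM (4596 to 5298), and endothelial-like cells 2141 CPM (1786 to 2545) and 2281 CPM (1887 to 2734). Every other class with at least 20 cells was at or under 1296 CPM in both libraries. Among them were differentiating oligodendrocyte precursor-like cells, which stand between the precursor and the myelinating cell, at 1100.05 and 1296 CPM, oligodendrocyte precursor-like cells at 1039 and 977 CPM, microglia-like cells at 894 and 730.3 CPM, and astrocyte-like cells at 841 and 749 CPM. Erythroid-like cells, which should make no matrix, had 369.9 CPM (257.6 to 514) and 578 CPM (370.5 to 860.3).

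The share of a class in the UMIs of the 44 genes followed its number of cells as well as its level. Microglia-like cells, 60.9% of vehicle and 46.0% of FGF21 cells, held 40.1% (vehicle) and 31.1% (FGF21) of these UMIs. Mural-like cells held 21.4% and 5.93%, while they were 7.79% and 2.07% of the cells. Oligodendrocyte precursor-like cells, 15.8% and 29.8% of the cells, held 19.5% and 38.2% of the UMIs. Fibroblast-like cells, 0.813% and 0.465% of the cells, held 8.12% and 4.78%.

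**Figure D1:**
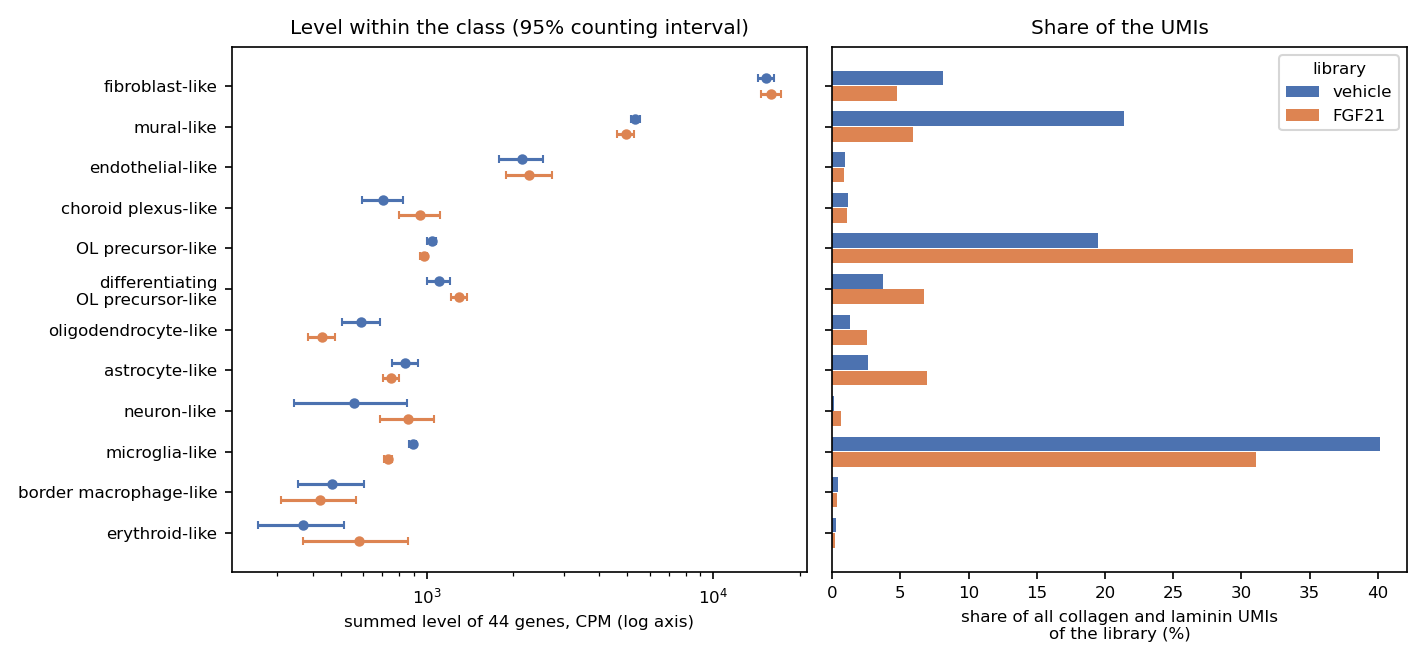
Left: summed level of the 44 genes in each class of at least 20 cells, in CPM on a log axis, for the vehicle and FGF21 libraries (points) with 95% counting intervals (bars). Right: share of all UMIs of the 44 genes that each class held, in percent. The levels of fibroblast-like, mural-like and endothelial-like cells stand above the rest in both libraries, while most of the UMIs came from the more numerous microglia-like and oligodendrocyte precursor-like cells, and in the vehicle library also from mural-like cells.

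Free RNA can give UMIs in cells that do not make a gene, and a background level was estimated before genes were assigned to classes. Whether free RNA was the source of this background was not tested. Markers of 1 class in another class that should lack them stood at a median of 29.9% (vehicle) and 36.8% (FGF21) of their level in the whole library, over 14 pairs that ranged from 20.0% to 43.5% and from 23.6% to 68.7%. A gene is called above background in a class where its interval lay above this share of its library level in both libraries. By this measure 22 of the 44 genes were above background in fibroblast-like cells, against 9.71% of all genes with at least 20 UMIs, and 22 in mural-like cells, against 30.8%. Endothelial-like cells had 5 (10.6% of all genes). In the other numerous classes the count was low beside that of all genes: 19 in oligodendrocyte precursor-like cells (78.3%), 13 in microglia-like (70.1%), 13 in astrocyte-like (47.5%), 9 in differentiating precursor-like (48.5%) and 4 in oligodendrocyte-like cells (33.1%). Choroid plexus-like cells had 4 (24.3%), border macrophage-like 1 (18.0%), neuron-like 1 (13.9%) and erythroid-like cells 0 (0.884%). Because a class with more UMIs has narrower intervals, these counts are read against all genes of the same class and not between classes. Background percentages given below set the median share of the library level of a gene against its class level. They are estimates and can exceed the whole level.

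By the mean level of both libraries, 22 of the 44 genes were highest in fibroblast-like cells, where 10.9% of all genes with at least 20 UMIs were highest. Differentiating oligodendrocyte precursor-like cells were highest for 5 genes (6.97% of all genes), endothelial-like cells for 5 (9.56%), mural-like cells for 4 (6.71%), and choroid plexus-like (13.0%) and neuron-like cells (15.5%) for 2 each. Microglia-like (6.99%), oligodendrocyte precursor-like (7.84%), border macrophage-like (9.49%) and erythroid-like cells (2.01%) were highest for 1 gene each, and astrocyte-like (5.98%) and oligodendrocyte-like cells (5.08%) for 0. The class was the same in both libraries taken alone for 28 of the 44 genes, against 41.4% of all genes. For 7 genes, all highest in fibroblast-like cells, the interval of that class lay above those of all other classes in both libraries, as it did for 0.343% of all genes: Col1a1, Col1a2, Col3a1, Col4a5, Col12a1, Col15a1 and Lama1.

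**Figure D2:**
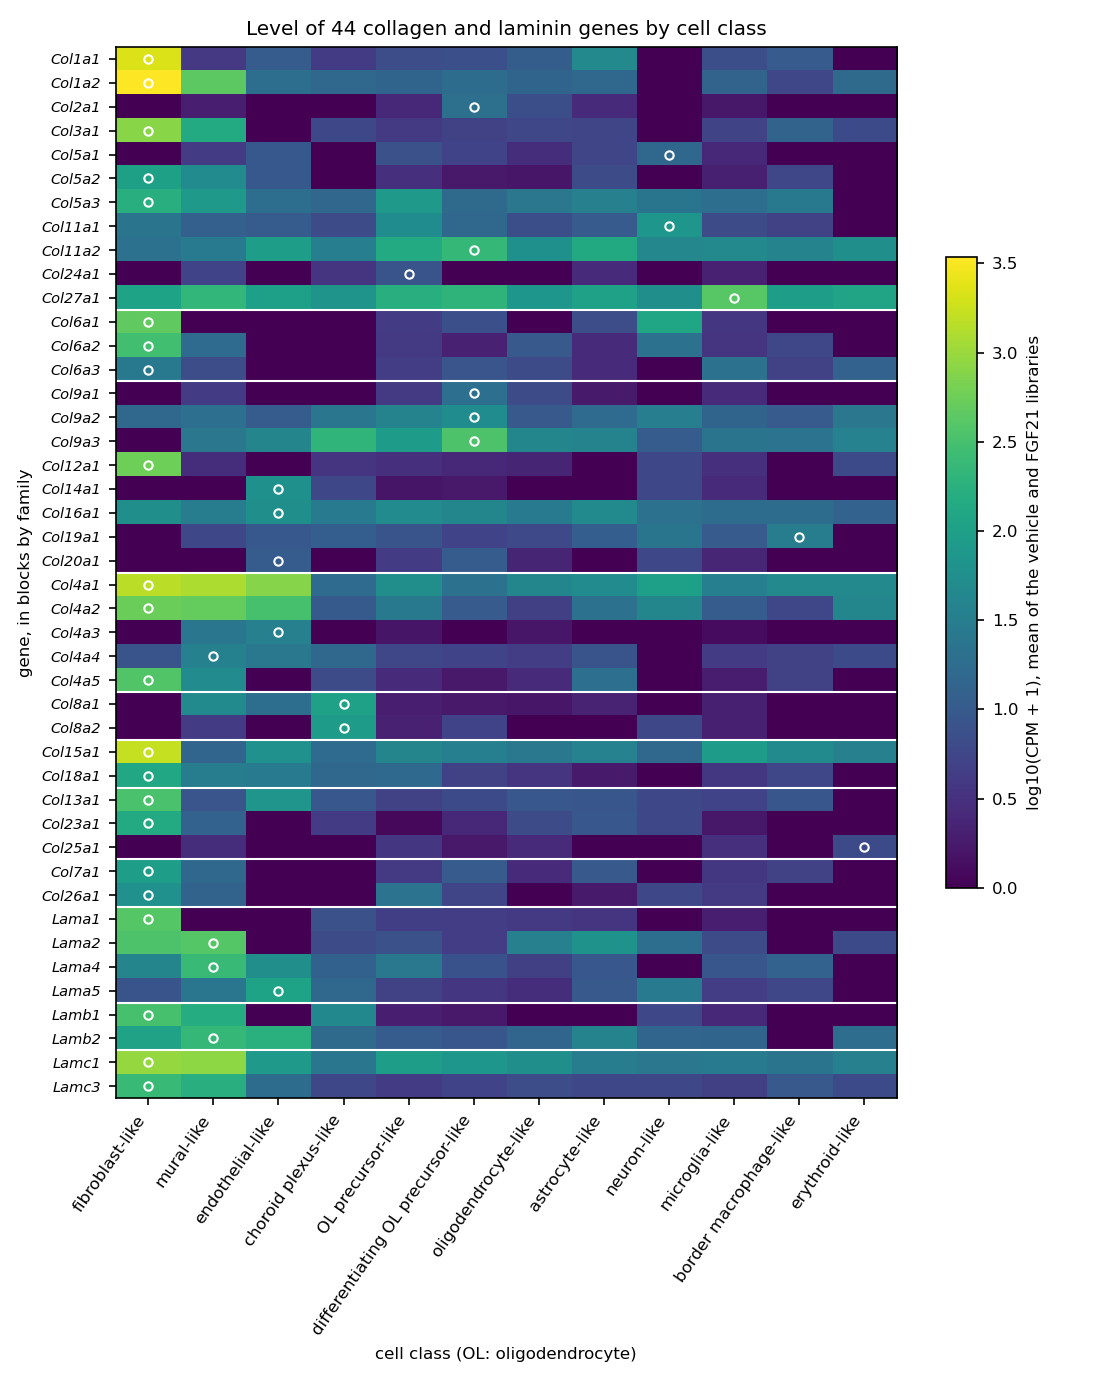
Level of each of the 44 genes (rows, in blocks by family) in each of 12 classes (columns), as log10(CPM + 1) of the mean of the vehicle and FGF21 libraries. White circles mark the class with the highest mean level. The circles gather in the fibroblast-like column (22 genes), and type IV collagen and laminin rows are bright in the mural-like column as well.

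Type IV collagen was detected in all vessel-associated classes. Col4a1 and Col4a2 encode the chains of the common type IV trimer and lie head to head on chromosome 8 (GRCm38), Col4a1 at 11198423 to 11312826 on the minus strand and Col4a2 at 11312805 to 11449287 on the plus strand. Because they are transcribed from 1 shared region, the windows around both start sites are shown (RefSeq, GRCm38.p6, 250 bases before to 50 after the start, 5′ to 3′ on the strand of the gene, Col4a1 at chr8:11312777-11313076 and Col4a2 at chr8:11312555-11312854). Capitals mark CCAAT boxes (CCAAT) and GC boxes (GGGCGG) found on either strand.
Col4a1: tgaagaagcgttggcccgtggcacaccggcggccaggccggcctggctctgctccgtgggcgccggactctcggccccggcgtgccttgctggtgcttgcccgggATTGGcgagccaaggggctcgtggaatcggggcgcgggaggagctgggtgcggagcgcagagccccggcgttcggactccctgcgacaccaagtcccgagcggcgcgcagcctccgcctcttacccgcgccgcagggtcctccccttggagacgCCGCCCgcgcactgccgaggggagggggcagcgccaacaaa
Col4a2: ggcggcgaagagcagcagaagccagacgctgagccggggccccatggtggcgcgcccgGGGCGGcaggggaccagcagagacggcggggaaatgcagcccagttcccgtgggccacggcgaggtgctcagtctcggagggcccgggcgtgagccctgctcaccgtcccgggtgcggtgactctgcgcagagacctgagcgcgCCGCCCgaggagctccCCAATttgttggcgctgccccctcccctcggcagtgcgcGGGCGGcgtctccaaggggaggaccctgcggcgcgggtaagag

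The windows share 78 bases, with the start sites 21 bases apart. In the Col4a1 window there was 1 CCAAT box and 1 GC box, and in the Col4a2 window 1 and 3. The GC box of the Col4a1 window lies in the shared bases and is 1 of the 3 of the Col4a2 window. A CCAAT box was found in 37.4% and a GC box in 35.7% of all 32851 windows of this length, and in 12 and 22 of the 35 windows that matched 32 of the 44 genes. The TATA box (TATAAA) was in neither window, against 13.6% of all windows and 3 of the 35. A match is a description of the letters and not a binding site.

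Col4a1 had 741 vehicle and 166 FGF21 UMIs in mural-like cells (1417 and 1059 CPM), 85 and 68 in fibroblast-like cells (1227 and 1733 CPM) and 53 and 34 in endothelial-like cells (886 and 663 CPM). The vehicle intervals of fibroblast-like (980 to 1517 CPM) and mural-like cells (1317 to 1523 CPM) overlapped, and that of endothelial-like cells (664 to 1159 CPM) lay below the mural-like one. In the FGF21 library the mural-like (904 to 1233 CPM) and endothelial-like intervals (459 to 926 CPM) overlapped, and the fibroblast-like one (1345 to 2197 CPM) lay above both. All 3 classes stood far above oligodendrocyte precursor-like (66.8 and 43.0 CPM) and microglia-like cells (46.1 and 19.1 CPM). Col4a1 was found in 94.5% of vehicle and 85.0% of FGF21 mural-like cells (median depths 2771 and 3742 UMIs), against 17.6% and 11.2% of the deeper microglia-like cells (4175 and 6030 UMIs), a class not above background. Thinning each cell to 2000 UMIs gave shares of 88.5% and 69.4% against 8.44% and 3.68%, with 26 and 4 shallower mural-like and 73 and 22 microglia-like cells left out.

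Col4a2 followed the same classes, with 501 and 504 CPM in mural-like, 447 and 637 CPM in fibroblast-like and 268 and 370.5 CPM in endothelial-like cells. Both genes were above background in these 3 classes and in oligodendrocyte precursor-like cells, where Col4a2 had 26.6 and 24.3 CPM. In the precursor-like cells background was 59.3% and 40.4% of the Col4a1 level and 48.9% and 36.3% of the Col4a2 level. Endothelial markers stood there at 43.5% and 68.7% of their library level, above the median share used for background. The exons of the pair overlap by 22 bases on opposite strands, and whether the counting used the strand is not stated in the sources used here. Col4a5, a chain of other type IV trimers, was highest in fibroblast-like cells, with 29 and 13 UMIs (419 and 331 CPM) against 42.1 and 57.4 CPM in mural-like cells. Its 19.7 and 17.4 CPM in astrocyte-like cells were above background as well. Col4a4 was highest in mural-like cells by the mean of both libraries, with 26 and 3 UMIs (49.7 and 19.1 CPM). That mean was 34.4 CPM against 25.1 CPM in endothelial-like cells, which were highest in the vehicle library alone. Col4a4 was also above background in astrocyte-like cells, at 9.83 and 4.98 CPM.

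The laminin alpha chains, which carry the sites that bind cell receptors, differed in class. Lama1 was a fibroblast-like gene, with 22 and 19 UMIs there (317.5 and 484 CPM), whereas the next class, choroid plexus-like cells, had a mean of 6.56 CPM over both libraries. Lama2, the chain of muscle and astrocyte-facing basement membranes, was highest in mural-like cells with 219 and 58 UMIs (419 and 370.0 CPM), next to 389.7 and 306 CPM in fibroblast-like cells. It was also above background in astrocyte-like cells at 54.1 and 73.0 CPM and in oligodendrocyte-like cells at 24.2 and 42.4 CPM. Lama4, a chain of vessel basement membranes, was highest in mural-like cells at 256 and 236 CPM, followed by endothelial-like cells at 50.2 and 58.5 CPM. Lama5 was highest in endothelial-like cells at 83.6 and 136 CPM, from 5 and 7 UMIs. Lama2 and Lama4 thus had the same highest class, while Lama1 and Lama5 each had another. For Lama2, Lama4 and Lama5 the highest class overlapped the next in at least 1 library.

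Of the beta and gamma chains, Lamb1, Lamc1 and Lamc3 were above background in both mural-like and fibroblast-like cells. Lamc1, the gamma chain of most laminins, had 404 and 145 UMIs in mural-like cells (773 and 925 CPM) and 52 and 44 in fibroblast-like cells (751 and 1121 CPM). Lamb1 had 179.8 and 128 CPM in mural-like and 361 and 280.3 CPM in fibroblast-like cells. Lamb2 had 203 and 242 CPM in mural-like, 100.3 and 253 CPM in endothelial-like and 188 and 25.5 CPM in fibroblast-like cells, where it was not above background. Lamc3, a rarer gamma chain, had 129 and 15 UMIs in mural-like (247 and 95.7 CPM) and 22 and 7 in fibroblast-like cells (317.5 and 178 CPM). Of these 4 genes, Lamc1 was also above background in oligodendrocyte precursor-like cells, at 102 and 83.2 CPM. The same held for Lamc1 in differentiating precursor-like (81.8 and 59.3 CPM) and oligodendrocyte-like cells. Lamb2 was above background in astrocyte-like (46.7 and 27.4 CPM) and microglia-like cells (15.0 and 10.8 CPM) as well, and Lamb1 in choroid plexus-like cells.

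Type I collagen marked the fibroblast-like cells. Col1a1 (chromosome 11, 94936224 to 94953042) and Col1a2 (chromosome 6, 4504814 to 4541544) encode its chains. In fibroblast-like cells Col1a1 had 151 vehicle and 91 FGF21 UMIs (2179 and 2319 CPM) and Col1a2 had 236 and 135 (3406 and 3440 CPM). The genes parted in mural-like cells: Col1a2 had 273 and 57 UMIs there (522 and 364 CPM), Col1a1 only 3 and 0. Col1a1 was thus at 5.74 CPM in vehicle mural-like cells, not above background, whereas background made up 3.60% and 2.39% of the Col1a2 level there. Col1a1 instead was above background in astrocyte-like cells, with 15 and 64 UMIs (36.9 and 53.1 CPM) against a background of 17.3% and 11.5% of that level. Because Col1a2 was found in mural-like cells without Col1a1, its start site window is shown (RefSeq, GRCm38.p6, plus strand, chr6:4505368-4505667), with CCAAT and GC boxes of either strand in capitals. In GENCODE the gene begins further upstream, so the window belongs to a downstream start.
Col1a2: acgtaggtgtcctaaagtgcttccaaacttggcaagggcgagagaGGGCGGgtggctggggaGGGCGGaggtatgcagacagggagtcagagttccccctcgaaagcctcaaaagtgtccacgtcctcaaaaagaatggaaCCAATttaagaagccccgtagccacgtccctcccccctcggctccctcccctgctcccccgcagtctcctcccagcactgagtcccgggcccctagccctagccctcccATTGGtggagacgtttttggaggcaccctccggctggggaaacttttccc

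This window held 2 CCAAT boxes, 1 on each strand, and 2 GC boxes, and no TATAAA. Col3a1, which forms fibres with type I collagen, followed Col1a2, with 794 and 841 CPM in fibroblast-like and 142 and 147 CPM in mural-like cells. Col5a2, a chain of the type V collagen that nucleates such fibres, had 101.0 and 101.9 CPM in fibroblast-like and 53.5 and 44.7 CPM in mural-like cells, from few UMIs (7 and 4, and 28 and 7). Its partner Col5a3 was spread more widely. It had 72.2 and 254.8 CPM in fibroblast-like, 59.3 and 95.7 CPM in mural-like and 78.7 and 83.7 CPM in oligodendrocyte precursor-like cells, where 192 and 427 of its 354 and 643 UMIs were found.

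Other genes of the fibroblast-like cells came from several collagen families. Col15a1, a multiplexin of basement membrane borders, had 129 and 59 UMIs (1862 and 1503 CPM), and its relative Col18a1, the source of endostatin, 11 and 4 (159 and 102 CPM). Col12a1, a fibril-associated collagen, had 32 and 26 UMIs (462 and 662 CPM). The beaded filament chains Col6a1 and Col6a2 had 28 UMIs each in the vehicle library (404 CPM) and 21 and 7 in the FGF21 library (535 and 178 CPM). The transmembrane collagen Col13a1 had 24 and 12 UMIs (346 and 306 CPM) and Col26a1, an EMI-domain collagen, 3 and 3 (43.3 and 76.4 CPM). These levels rest on 28 cells, and 1 cell held 31.25% of the Col12a1 UMIs of the vehicle library. Pericyte markers stood at 6668 and 4510.01 CPM in the fibroblast-like cells, against 29702 and 23323 CPM in mural-like cells, and all 10 fibroblast markers together at 7982 and 5402 CPM against 455 and 459 CPM. The part of the pericyte transcripts in the type IV collagen and laminin levels of fibroblast-like cells was not tested.

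The oligodendrocyte lineage carried collagens of cartilage. Type IX and XI collagens form the thin fibres of cartilage together with type II collagen, and Col9a1, Col9a2, Col9a3, Col2a1 and Col11a2 were all highest in differentiating oligodendrocyte precursor-like cells, Col9a2 and Col2a1 in the mean of both libraries but not in the vehicle library alone. Col9a3 (chromosome 2, 180597790 to 180622189) had 121 and 291 UMIs there (275 and 431 CPM), against 77.0 and 102 CPM in oligodendrocyte precursor-like and 51.8 and 30.9 CPM in mature oligodendrocyte-like cells. It was high in choroid plexus-like cells too, at 172 and 243 CPM. A stretch of 234 exon bases of Col9a3 overlaps the gene Tcfl5 on the other strand, which had 23 UMIs over both tables. Col11a2 had 193 and 264 CPM in differentiating precursor-like, 138.5 and 149 CPM in precursor-like and 142.5 and 132 CPM in astrocyte-like cells, all above background.

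Col9a2 had 40.9 and 62.2 CPM in differentiating precursor-like and 40.6 and 34.5 CPM in precursor-like cells. Most UMIs of Col11a1, a chain that type XI shares with type V trimers, were in precursor-like cells, with 134 of 178 vehicle and 244 of 329 FGF21 UMIs (54.9 and 47.9 CPM), although the few neuron-like cells had 52.9 and 87.7 CPM from 2 and 9 UMIs. Col16a1, a fibril-associated collagen, had 41.4 and 57.5 CPM in precursor-like and 39.3 and 53.1 CPM in astrocyte-like cells, and Col26a1 had 19.7 and 22.9 CPM in precursor-like cells. Col24a1, a fibrillar collagen with 23 and 57 UMIs in all, was highest in precursor-like cells at 4.92 and 9.41 CPM. Of the 19 genes above background in precursor-like cells, Lama4 had 32.4 and 18.2 CPM and Col18a1 12.7 and 17.7 CPM.

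Microglia-like cells stood out for 1 fibrillar collagen. Col27a1 (chromosome 4, 63214004 to 63334991) had the most UMIs of the 44 genes, 3644 vehicle and 2941 FGF21 UMIs in used cells, of which 2858 and 1824 were in microglia-like cells (488 and 329 CPM). The next classes were mural-like cells at 174 and 262 CPM and differentiating precursor-like cells at 207 and 188 CPM. A UMI of Col27a1 was found in 75.6% of vehicle and 79.3% of FGF21 microglia-like cells, against 37.4% and 30.7% of astrocyte-like cells (median depths 4194 and 6115 UMIs), where its level was not above background. After thinning to 2000 UMIs these shares were 55.7% and 44.5% against 24.7% and 10.4%, with 22 and 28 shallower astrocyte-like cells left out. Background was estimated at 21.1% and 23.4% of the Col27a1 level of microglia-like cells. Since this gene alone among the fibrillar collagens was highest there, its start site window is shown (RefSeq, GRCm38.p6, plus strand, chr4:63215162-63215461), with GC boxes in capitals. The gene begins further upstream in the GENCODE annotation, so the window belongs to a downstream start.
Col27a1: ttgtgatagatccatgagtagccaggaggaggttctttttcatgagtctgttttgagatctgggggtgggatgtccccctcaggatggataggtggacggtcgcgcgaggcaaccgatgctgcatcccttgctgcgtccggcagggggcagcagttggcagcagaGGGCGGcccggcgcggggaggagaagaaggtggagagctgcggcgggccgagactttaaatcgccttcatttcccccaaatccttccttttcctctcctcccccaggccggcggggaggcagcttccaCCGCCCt

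The Col27a1 window held 2 GC boxes, 1 on each strand, and no CCAAT or TATAAA. GAGGAAGT, a core recognised by the myeloid factor PU.1, was not among its letters on either strand, against 3.2% of all windows and 0 of the 35. Among the other genes above background in microglia-like cells, Col15a1 had 497 and 504 UMIs (84.9 and 90.8 CPM), Col6a3, a beaded filament chain, 142 and 85 (24.3 and 15.3 CPM) and Col19a1, a fibril-associated collagen, 67 and 39 (11.4 and 7.03 CPM). Col6a3 was found mostly in these cells, which held 142 of its 165 vehicle and 85 of its 113 FGF21 UMIs. Its mean level was higher in fibroblast-like cells (25.5 CPM), but that rested on 2 FGF21 UMIs.

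In the remaining classes few of the 44 genes were above background. Border macrophage-like cells had 95.2 and 92.0 CPM of Col27a1 (12 and 10 UMIs), 39.7 and 55.2 CPM of Col15a1 and 63.5 and 27.6 CPM of Col4a1. In mature oligodendrocyte-like cells Col27a1 had 93.2 and 48.9 CPM, Col11a2 65.6 and 50.1 CPM and Lamc1 58.7 and 52.7 CPM. Of these 3 genes Lamc1 was above background there, and Col27a1 and Col11a2 were not. The 3 vehicle and 10 FGF21 dividing cells had Lamc1 at 126 and 104 CPM, Col27a1 at 158 and 32.0 CPM and Col4a1 at 126 and 48.0 CPM, from 4 to 13 UMIs each. Even erythroid-like cells had 84.5 and 145 CPM of Col27a1 from 8 and 6 UMIs, 42.3 and 72.3 CPM of Col11a2 and 42.3 and 48.2 CPM of Col4a1. None of the 44 genes was above background in the erythroid-like cells.

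Several genes had their highest level in small classes. Type VIII collagen, a short-chain network collagen of vessel walls and Descemet's membrane, was highest in choroid plexus-like cells: Col8a1 had 18 and 19 UMIs there (85.8 and 125 CPM) and Col8a2 had 4 and 24 (19.1 and 157 CPM). Col8a1 was second highest in mural-like cells at 63.1 and 31.9 CPM. In neuron-like cells Col6a1 had 0 vehicle and 24 FGF21 UMIs, 54.2% of them in 1 cell, and Col4a1 had 185 and 9.75 CPM. Col14a1 and Col20a1, both fibril-associated, Col16a1 and Col4a3 were highest in endothelial-like cells on at most 6 UMIs per library, and Col5a1 in neuron-like cells on 3. Col25a1, a transmembrane collagen, had its highest mean in erythroid-like cells from 1 UMI, and Col19a1 in border macrophage-like cells from 4 and 3. These placements rest on too few molecules to rank the classes. The transmembrane Col23a1 and the anchoring fibril chain Col7a1, with 58 and 93 UMIs in all barcodes, were highest in fibroblast-like cells at means of 145 and 92.6 CPM.

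The helper genes of collagen folding and processing were highest in several classes, most often in fibroblast-like cells. Collagen chains are hydroxylated and folded in the endoplasmic reticulum, trimmed and cross-linked outside the cell, and bound there by partner proteins, receptors and proteases. Of 19 folding and hydroxylation genes, 8 were highest in fibroblast-like cells, where 10.9% of all genes were highest. Among them Serpinh1, the collagen chaperone HSP47, had 35 and 22 UMIs there (505 and 561 CPM), next to 553 and 453 CPM in mural-like cells, and P4hb, a subunit of prolyl 4-hydroxylase, 30 and 12 (433 and 306 CPM). Microglia-like cells were highest for 3 of the 19 (6.99% of all genes) and mural-like cells for 1 (6.71%). Astrocyte-like (5.98%), endothelial-like (9.56%) and differentiating precursor-like cells (6.97%) were highest for 2 each, and border macrophage-like cells (9.49%) for 1. Of the 10 measured of 13 processing and cross-linking genes, 5 were highest in fibroblast-like cells: Lox, Loxl1, Loxl2, Pcolce and Pxdn. The placement rested on few UMIs for Lox (3 and 4), Loxl1 (4 and 0) and Pxdn (3 and 1). Pcolce, which enhances the trimming of fibrillar procollagen, had 48 and 25 UMIs there (693 and 637 CPM), and the cross-linking enzyme Loxl2 9 and 12 (130 and 306 CPM).

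Of the 10 basement membrane partners, 3 were highest in fibroblast-like cells (Hspg2, Nid1 and Nid2), where 10.9% of all genes were, and 3 in mural-like cells (Egflam, Fbln1 and Ntn4), where 6.71% were. Nid1, nidogen, which links laminin to type IV collagen, had 1198 and 764 CPM in fibroblast-like and 1019 and 797 CPM in mural-like cells. Sparc, a collagen-binding glycoprotein, was highest in microglia-like cells at 4447 and 4291 CPM, beside 3608 and 3032 CPM in fibroblast-like cells. Mural-like cells were highest for 6 of the 14 measured of 17 receptor genes: Itga1, Itga7, Itga10, Itgb1, Dag1 and Bcam. The collagen-binding integrin chain Itga1 had 885 and 230 UMIs there (1692 and 1467 CPM), and its partner Itgb1 564 and 163 (1079 and 1040 CPM). Of the 13 measured of 14 proteases and inhibitors, 5 were highest in fibroblast-like cells, among them Timp3, an inhibitor held in the matrix, with 303 and 144 UMIs (4373 and 3669 CPM).

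The libraries were then compared within classes. A ratio is the FGF21 level over the vehicle level, and it is called apart where it was at least 2-fold with an interval that leaves out 1, for genes with at least 20 UMIs in the class. Over the 8 classes with at least 20 cells in each library, 112 pairs of gene and class could be compared, of which 5 were higher and 10 lower in the FGF21 library. With the background subtracted, 3 remained higher and 2 lower. No erythroid-like pair had enough UMIs (19.0% of all genes measured there were higher and 4.07% lower), and 0 of 9 genes were apart in oligodendrocyte-like cells and 0 of 1 in border macrophage-like cells, where Col27a1 had 12 and 10 UMIs and a ratio of 0.966 (0.374 to 2.44). The shares of all genes apart in these 2 classes were 3.46% higher and 3.35% lower, and 6.3% and 6.07%.

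**Figure D3:**
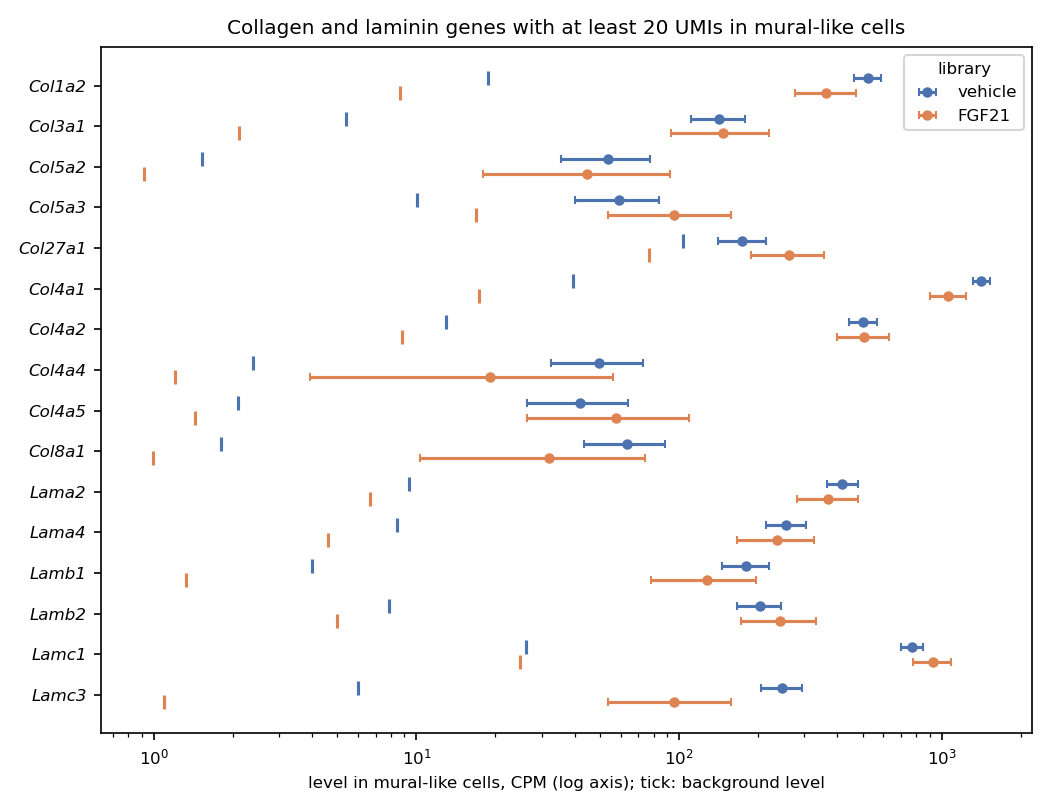
Level in mural-like cells, in CPM on a log axis, of the collagen and laminin genes with at least 20 UMIs there, in the vehicle and FGF21 libraries (points) with 95% counting intervals (bars) and the background level of each gene (vertical ticks). For Lamc3 (247 and 95.7 CPM) and Col4a1 (1417 and 1059 CPM) the intervals of the libraries lie apart, while those of the other genes overlap.

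In mural-like cells 1 of the 16 genes compared was lower in the FGF21 library and 0 were higher, against 3.69% and 4.09% of all genes. That gene was Lamc3, with 129 UMIs in 182 vehicle and 15 in 40 FGF21 cells (247 and 95.7 CPM) and a ratio of 0.388 (0.211 to 0.664). Background made up 2.43% and 1.15% of these levels, and 1 cell held 20.0% of the FGF21 UMIs. The ratios of other laminin chains lay closer to 1. Lamc1 had a ratio of 1.20 (0.983 to 1.45), Lamb1 of 0.710 (0.415 to 1.16), Lamb2 of 1.20 (0.803 to 1.75), Lama2 of 0.884 (0.650 to 1.18) and Lama4 of 0.921 (0.622 to 1.33). All of these intervals include 1.

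Among the collagens of mural-like cells, Col4a1 had a ratio of 0.747 (0.628 to 0.885), while its partner Col4a2 had 1.01 (0.772 to 1.30). Col1a2 had 0.697 (0.514 to 0.930) and Col3a1 1.04 (0.620 to 1.67). Col27a1 was at 91 and 41 UMIs (174 and 262 CPM), a ratio of 1.50 (1.01 to 2.20), with 59.3% and 29.4% of its level at background. The median log2 ratio of the 16 genes was -0.14, and that of all 6551 genes compared was -0.01. The summed level of the 44 genes gave 0.925 (0.853 to 1.00).

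Smooth muscle markers in the mural-like cells summed to 2465 vehicle and 7732 FGF21 CPM. Clustered again, the class fell into a pericyte-like part of 147 and 27 cells and a smooth muscle-like part of 35 and 13 cells, the latter 19.2% of the vehicle and 32.5% of the FGF21 mural-like cells. This division was added after the data were seen. The smooth muscle-like part itself differed, with Acta2, the contractile actin of smooth muscle, at 998 and 6887 CPM. Its pericyte markers were lower in the FGF21 library, with Rgs5 at 12062.5 and 5725 CPM and Pdgfrb at 884 and 409 CPM. The ratios of this part thus compare cells of unlike marker levels. Lamc3 had ratios below 1 in both parts. It had 102 and 13 UMIs (244 and 136 CPM, ratio 0.557, 0.287 to 0.995) in pericyte-like and 27 and 2 (257 and 32.7 CPM, ratio 0.127, 0.0147 to 0.507) in smooth muscle-like cells. In pericyte-like cells its ratio was thus short of 2-fold.

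Lama4 had opposite ratios in these parts, 1.41 (0.917 to 2.12) in pericyte-like cells and 0.246 (0.0752 to 0.630) from 35 and 5 UMIs in smooth muscle-like cells. The difference between the parts was not tested. Col8a1 had 18 vehicle and 0 FGF21 UMIs in the smooth muscle-like part and 15 and 5 in the pericyte-like part. Lamc1 was at 852 and 1213 CPM in pericyte-like cells, a ratio of 1.42 (1.14 to 1.76), and at 456 and 474 CPM in smooth muscle-like cells. Col4a1 had 0.848 (0.688 to 1.04) and 0.581 (0.416 to 0.801). The part of the smooth muscle make-up in these ratios was not tested.

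Of the helper genes in mural-like cells, 2 of 13 folding genes compared were lower in the FGF21 library, beside the 3.69% of all genes. P4ha1, a catalytic chain of prolyl 4-hydroxylase, had 152 and 21 UMIs (291 and 134 CPM, ratio 0.461, 0.277 to 0.730). Plod2, the lysyl hydroxylase that acts on the ends of collagen chains, had 74 and 5 (142 and 31.9 CPM, ratio 0.225, 0.0711 to 0.550). Both act on collagen chains, but the most abundant folding gene there, Serpinh1, had a ratio of 0.820 (0.623 to 1.07). P4ha1 was highest in microglia-like cells, and background was 29.2% and 40.5% of its mural-like level. Plod2 was highest in differentiating precursor-like cells, and background was 3.98% and 18.6% of its mural-like level. Ddr1, a collagen receptor, was higher with 15 and 13 UMIs (ratio 2.89, 1.27 to 6.51) as 1 of 11 receptors, and the protease inhibitor Timp2 with 60 and 36 (2.00, 1.29 to 3.08) as 1 of 6 proteases and inhibitors, beside the 4.09% of all genes. Ddr1 was highest in oligodendrocyte-like cells, and background was 45.5% and 37.6% of its mural-like level. Timp2 was highest in microglia-like cells, and background was 121% and 71.5% of its mural-like level. None of the 3 processing genes and 7 basement membrane partners compared was apart, Nid1 with a ratio of 0.782 (0.639 to 0.952) and Sparc with 0.982 (0.875 to 1.10).

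**Figure D4:**
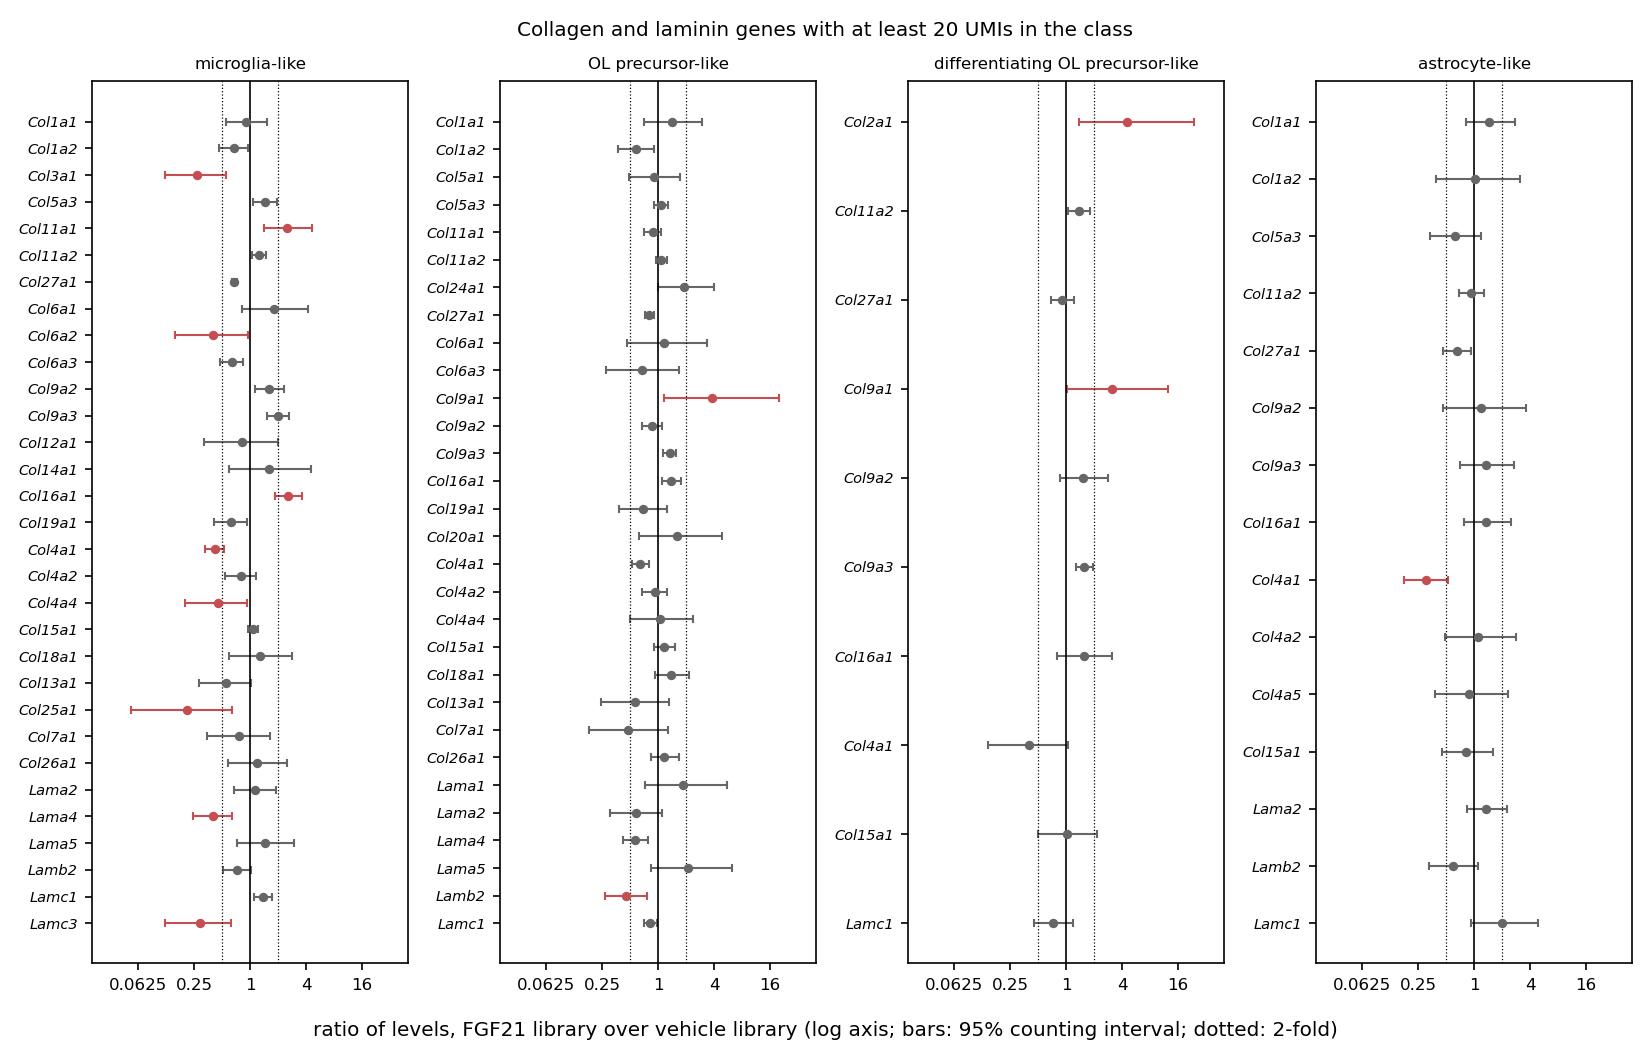
Ratio of the FGF21 to the vehicle level (log axis, 1 means equal) of each collagen or laminin gene with at least 20 UMIs in a class, in microglia-like, oligodendrocyte (OL) precursor-like, differentiating precursor-like and astrocyte-like cells, with 95% counting intervals (bars) and dotted lines at 2-fold. Genes at least 2-fold apart with an interval without 1 are red: 7 lower and 2 higher in microglia-like cells and at most 2 in each of the other classes.

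In microglia-like cells 7 of 31 genes were lower (2.09% of all genes) and 2 higher (5.11%) in the FGF21 library. Col4a1 had 270 and 106 UMIs (46.1 and 19.1 CPM), a ratio of 0.414 (0.328 to 0.520), with 85.8% and 90.8% of its level at background. Lama4 had 66 and 25 UMIs (0.399, 0.242 to 0.642), Col3a1 39 and 10 (0.270, 0.120 to 0.552) and Lamc3 33 and 9 (0.288, 0.121 to 0.614). Their background was 67.7% to 117% of their level, and all 4 had their highest levels in mural-like or fibroblast-like cells. Col4a4 had 26 and 11 UMIs (0.446, 0.199 to 0.935) and Col6a2 21 and 8 (0.402, 0.154 to 0.944), with 53.5% to 60.6% at background. Pericyte markers in the microglia-like cells stood at 619 and 170 CPM.

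Col25a1, a transmembrane collagen, had 20 and 4 UMIs (3.42 and 0.721 CPM, ratio 0.211, 0.0524 to 0.630) with 27.3% and 47.1% at background. It was the only one of the 7 still called lower after the background was subtracted. For the others, the loss of the call does not mean that the fold became smaller. Col25a1 was not among the genes above background in microglia-like cells. It was above background in precursor-like cells, with 9 and 8 UMIs (3.69 and 1.57 CPM), too few to be compared. The 2 higher genes were Col16a1, with 54 and 132 UMIs (9.23 and 23.8 CPM, ratio 2.58, 1.86 to 3.61), and Col11a1, with 18 and 43 (3.08 and 7.75 CPM, ratio 2.52, 1.42 to 4.64). Background was 65.3% and 63.8% of the former and 164% and 111% of the latter, and both were more abundant in precursor-like cells. Neither was called after subtraction, but the background shares of Col16a1 were alike in both libraries, so subtraction did not by itself shrink its ratio. Markers of oligodendrocyte precursors in the microglia-like cells stood at 635 and 1090 CPM.

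Of the 13 genes above background in microglia-like cells only Col16a1 was apart. Col27a1 had a ratio of 0.673 (0.634 to 0.714), Col6a3 of 0.631 (0.477 to 0.832), Col19a1 of 0.614 (0.403 to 0.924) and Col15a1 of 1.07 (0.943 to 1.21). The median log2 ratio was -0.29 over the 31 genes and 0.04 over all 13035 genes compared, and the summed ratio was 0.817 (0.784 to 0.852). The libraries hold these cells in different clusters, and the part of that difference in the ratios was not tested.

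Among the partner genes of microglia-like cells, 4 were lower and 6 higher, beside 2.09% and 5.11% of all genes. Of 10 basement membrane partners, 2 were lower, Nid1 with 61 and 7 UMIs (0.121, 0.0467 to 0.265) and Egflam, pikachurin, a ligand of dystroglycan, with 69 and 13 (0.199, 0.101 to 0.363), while the abundant Sparc had 0.965 (0.948 to 0.982). Of 14 receptors, Itga1 (0.322, 0.220 to 0.462) and Ddr2 (0.487, 0.224 to 0.999) were lower and Ddr1 (2.18, 1.59 to 3.02) higher. The matrix proteases Mmp15 (2.00, 1.68 to 2.40), Mmp17 (4.80, 2.30 to 11.2) and Adamts4 (2.43, 1.41 to 4.33) and the inhibitor Timp4 (2.41, 1.94 to 3.00) were higher, 4 of 12. The peroxidase Pxdn, which cross-links type IV collagen, was higher as 1 of 6 processing genes (2.58, 1.14 to 6.36), and 0 of 17 folding genes were apart, P4ha1 lying just inside at 0.533 (0.495 to 0.573).

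None of these 10 partner genes was highest in microglia-like cells. The 4 lower ones, Nid1, Egflam, Itga1 and Ddr2, were highest in mural-like or fibroblast-like cells, and background was 101% to 406% of the microglia-like level of the first 3 and 118% of the FGF21 level of Ddr2. Of the higher ones, Mmp15 and Mmp17 were highest in oligodendrocyte precursor-like, Adamts4 and Ddr1 in oligodendrocyte-like, Timp4 in differentiating precursor-like and Pxdn in fibroblast-like cells. Background was 80.2% to 199% of the microglia-like level of these 6, and oligodendrocyte precursor markers had 635 and 1090 CPM there. The part of these transcripts in the ratios was not tested.

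In oligodendrocyte precursor-like cells 1 of 30 genes was higher and 1 lower in the FGF21 library, close to the 1.81% and 1.84% of all genes. Col9a1, a type IX chain, had 3 vehicle and 24 FGF21 UMIs (1.23 and 4.71 CPM, ratio 3.83, 1.16 to 19.9). It was not among the genes above background in this class, and background was 32.2% and 36.1% of its level. Lamb2 had 33 and 31 (13.5 and 6.08 CPM, ratio 0.450, 0.266 to 0.757), of which 58.2% and 82.1% was background. The abundant genes of the class lay nearer to 1, Col11a2 at 1.08 (0.948 to 1.23), Col5a3 at 1.06 (0.896 to 1.27), Col9a3 at 1.32 (1.12 to 1.57), Col11a1 at 0.872 (0.703 to 1.08), Lamc1 at 0.818 (0.698 to 0.961) and Col27a1 at 0.802 (0.714 to 0.902). Col4a1 was at 0.643 (0.523 to 0.793) and Lama4 at 0.564 (0.413 to 0.770), where pericyte markers had 644 and 166 CPM. Their part in these ratios was not tested.

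Partner genes were apart in precursor-like cells for Nid1 (0.399, 0.187 to 0.838), Egflam (0.140, 0.0508 to 0.334), Itga1 (0.300, 0.199 to 0.448) and Itga10 (0.412, 0.247 to 0.685) on the lower side. All 4 had their highest level in fibroblast-like or mural-like cells, and background was 117% to 275% of the level of the first 3 here and 23.0% and 41.2% of that of Itga10. On the higher side were Itgb4, a chain of a laminin-binding integrin, with 5 and 30 UMIs (2.87, 1.10 to 9.48), and the protease Adamts1 with 57 and 269 (2.26, 1.69 to 3.06). Background was 96.7% and 74.6% of the Itgb4 level and 18.3% and 19.0% of the Adamts1 level. These 4 lower and 2 higher genes stand beside 1.84% and 1.81% of all genes. None of the 17 folding and 7 processing genes was apart.

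In differentiating precursor-like cells (38 cells in each library) 2 of 10 genes were higher, against 2.72% of all genes, and 0 lower (2.65%). Both were cartilage collagens: Col2a1 had 3 and 21 UMIs (6.82 and 31.1 CPM, ratio 4.56, 1.36 to 23.9) and Col9a1 4 and 19 (9.09 and 28.1 CPM, ratio 3.10, 1.03 to 12.5). All 3 vehicle UMIs of Col2a1 came from 1 cell, and neither gene was called once the cell with most of its UMIs was left out. Col9a3, with far more UMIs, had a ratio of 1.57 (1.26 to 1.95), Col9a2 1.52 (0.857 to 2.81) and Col11a2 1.36 (1.05 to 1.79). The summed ratio of the 44 genes was 1.18 (1.05 to 1.32). Of the partner genes, Tmem38b, an ion channel of the endoplasmic reticulum, had 15 and 8 UMIs (0.348, 0.128 to 0.873) as 1 of 12 folding genes. Bcam, a laminin receptor, had 15 and 6 (0.261, 0.0829 to 0.711) as 1 of 8 receptors. Both were highest in mural-like cells, and background was 15.4% and 60.8% of the Tmem38b level and 47.3% and 127% of the Bcam level.

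Astrocyte-like cells had 1 of 15 genes lower (2.46% of all genes) and 0 higher (3.46%). Col4a1 had 31 and 28 UMIs there (76.2 and 23.2 CPM, ratio 0.305, 0.176 to 0.525), of which 52.0% and 74.7% was background, and it was not called after the background was subtracted. Pericyte markers in these cells had 740 and 213 CPM. The more abundant genes that were above background had intervals that include 1, Lama2 at 1.35 (0.839 to 2.26), Col1a1 at 1.44 (0.811 to 2.72) and Col11a2 at 0.925 (0.681 to 1.27). Itga1 was the only one of the partner genes apart in astrocyte-like cells, at 0.295 (0.133 to 0.646), with 84.5% and 83.2% of its level at background.

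In oligodendrocyte-like cells, where 0 of 9 collagen and laminin genes were apart, 2 partner genes were higher and 5 lower, beside 3.46% and 3.35% of all genes. Of 6 proteases and inhibitors, Timp4 had 4 and 42 UMIs (3.91, 1.42 to 15.0) and Timp3 8 and 51 (2.37, 1.12 to 5.79), with background at 75.2% to 326% of their levels, and the protease Adamts1 had 24 and 26 (0.403, 0.223 to 0.734). Of 8 receptors, Bcam had 16 and 17 UMIs (0.396, 0.188 to 0.837) and the collagen-binding inhibitory receptor Lair1 26 and 29 (0.415, 0.236 to 0.734). Lair1 was highest in microglia-like cells, and its background was 125% and 240% of its level. Of 3 processing genes, Pcolce2, a procollagen enhancer, had 18 and 20 UMIs (0.414, 0.208 to 0.830) and the procollagen protease Adamts2 15 and 19 (0.472, 0.227 to 0.997). Background was 2.02% to 10.1% of the levels of the latter pair, and Adamts2 was highest in these cells. Bcam was highest in mural-like and Adamts1 in endothelial-like cells. None of the 11 folding genes and 2 basement membrane partners compared was apart.

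Over all used cells, without regard to class, a larger part of the genes was apart. Of the 44 genes 13 were lower in the FGF21 library and 4 higher, against 4.08% and 4.35% of all genes. Lamc3 had 212 and 42 UMIs (20.0 and 2.98 CPM, ratio 0.149, 0.104 to 0.208), Col4a1 1399 and 664 (132 and 47.1 CPM, ratio 0.357, 0.325 to 0.391) and Col1a2 664 and 333 (62.7 and 23.6 CPM, ratio 0.377, 0.329 to 0.430). Lamb1 was at 0.270 (0.192 to 0.374) and Col3a1 at 0.319 (0.243 to 0.415). These are genes of mural-like and fibroblast-like cells, which were 7.79% and 0.813% of the vehicle cells but 2.07% and 0.465% of the FGF21 cells. Lama4, Col4a3, Col4a4, Col5a2, Col6a2, Col8a1, Col13a1 and Col25a1 completed the lower genes, with ratios of 0.296 to 0.487. The higher genes were Col8a2 (8 and 49 UMIs, 4.60, 2.16 to 11.3), Col9a1 (14 and 65, 3.49, 1.94 to 6.73), Col2a1 (10 and 46, 3.46, 1.72 to 7.68) and Col16a1 (213 and 581, 2.05, 1.75 to 2.41).

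**Figure D5:**
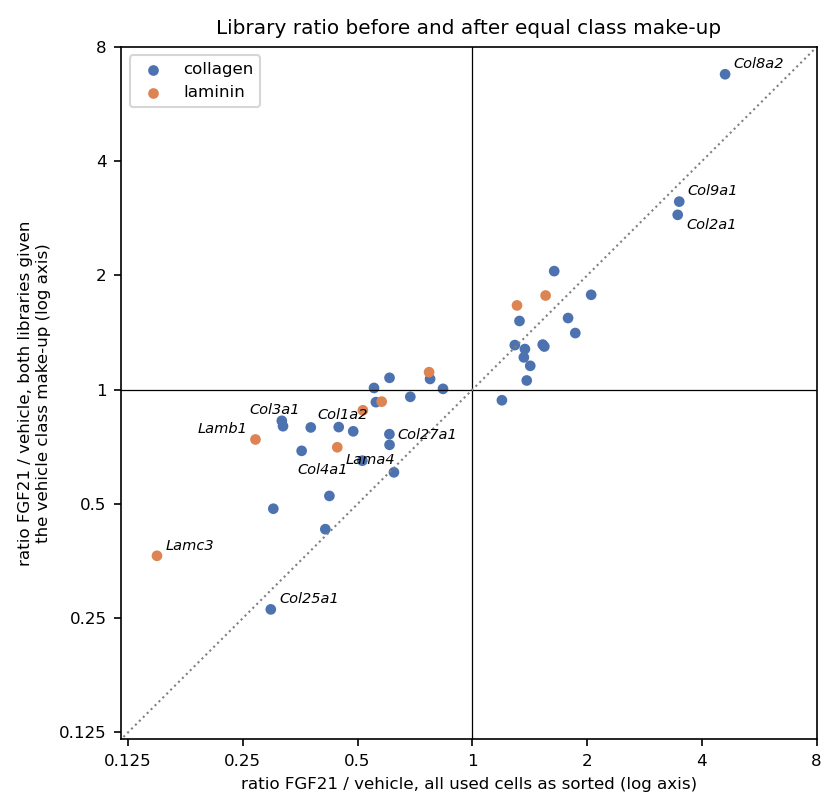
Ratio of the FGF21 to the vehicle level over all used cells (horizontal, log axis) against the same ratio with the class make-up of the vehicle library given to both (vertical, log axis), 1 point per gene (blue collagens, orange laminins), with equal ratios on the dotted line. Most points lie nearer to 1 on the vertical than on the horizontal axis (36 of 44).

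Giving the FGF21 library the class make-up of the vehicle library brought 36 of the 44 ratios closer to 1, and the median distance from 1 went from 1.79-fold to 1.31-fold. Over all genes with at least 20 UMIs, 65.3% came closer to 1, and the median distance went from 1.24-fold to 1.17-fold. The lower genes went from 13 to 4 and the higher ones from 4 to 3, and after this step 2.13% of all genes were lower and 2.12% higher. The ratio of Col4a1 became 0.690, of Col1a2 0.795, of Col3a1 0.801 and of Lamb1 0.739. Lamc3 stayed at 0.365 and Col25a1 at 0.264, Col9a1 at 3.13 and Col8a2 at 6.78, the last resting on 4 and 24 UMIs of choroid plexus-like cells. Over a whole library, fewer cells of a type and less RNA per cell cannot be told apart, and whether the treatment or the preparation of 1 pool set the number of mural-like cells cannot be told apart either.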

How the data were processed

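Single cells of the 2 pools were captured on BD Rhapsody and sequenced as whole-transcriptome libraries. The deposited values are counts of unique molecules per gene and cell, which the authors made with version 1.9.1 of BD's WTA Rhapsody Analysis Pipeline (per the file headers) on GRCm38 (per the submitters' processing notes). Not given in the sources used here are the annotation, the cell calling and the use of strand. Gene positions printed here come from the GENCODE vM21 reference annotation, which is not taken from the authors' files. A gene with a column in only 1 table was taken as 0 in the other. The tables held 11130580 (vehicle) and 14585503 (FGF21) UMIs in 2925 and 2455 barcodes.

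Barcodes with at least 500 UMIs, 300 genes and at most 25% mitochondrial UMIs were kept, and the 17 and 16 doublets called by Scrublet were removed, so that 588 vehicle and 520 FGF21 barcodes were not used. Cells were clustered with scanpy 1.11.5 (2000 variable genes without the collagen and laminin genes, 30 principal components, 15 neighbours, Leiden resolution 1.0, Python 3.11.15, igraph 0.11.9) into 15 clusters. Clusters were named X-like from fixed marker lists, by a rule set after the clusters were seen, and merged into 13 classes, of which 12 have at least 20 cells. UMIs were summed per class and library. Intervals are exact Poisson for levels and conditional binomial for ratios (scipy 1.17.1, numpy 2.4.6, pandas 2.3.3), cover counting error only, and were checked on simulated data. Shares of cells with a UMI are given also after thinning to 2000 UMIs, and the background share is the median over 14 pairs of a class and a marker list it should lack.

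The labels give 1 library per treatment, so no test was run. The genes, lists and comparisons were chosen with earlier results of these data known. Values are printed for genes with at least 100 UMIs (31 genes), the 3 highest of each class of at least 10 cells, genes at least 2-fold apart in a class of at least 20 cells per library, and, of each partner list, the 2 genes with most UMIs in a described class and those apart. Alternatives covered cell filters, resolution, doublets, single cells, background, weighting and make-up.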

Additional observations from a re-analysis of the deposited data

Results flagged for a closer look

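The ratio of the FGF21 to the vehicle level had opposite directions in different classes for 2 genes, with intervals that leave out 1 on both sides. For Col27a1 it was 1.50 in mural-like cells (91 and 41 UMIs) and below 1 with an interval without 1 in 4 classes, at 0.524 in oligodendrocyte-like, 0.649 in astrocyte-like, 0.673 in microglia-like and 0.802 in oligodendrocyte precursor-like cells. For Lamc1 it was 1.37 in microglia-like cells (138 and 179 UMIs) and 0.818 in oligodendrocyte precursor-like cells (248 and 424 UMIs). The difference between classes was not tested, since each treatment has 1 library. Background made up 59.3% and 29.4% of the Col27a1 level in mural-like cells. Col27a1 was not above background in oligodendrocyte-like cells (background 111% and 157% of its level) or in astrocyte-like cells (82.3% and 94.5%). Lamc1 was not above background in microglia-like cells, where background was 111% and 76.8% of its level.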

How the results depend on the processing

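No paired analysis was possible because each treatment has 1 pooled library and no test was made. Under the alternatives tried no value called apart changed direction. With the vehicle make-up, 6 whole-library ratios that were not called crossed 1, among them Col4a2 (0.552 to 1.01) and Lamc1 (0.770 to 1.11), and Lama4 went from 0.921 in mural-like to 1.41 in pericyte-like cells. Within classes, the 10 lower pairs became 2 (Lamc3 in mural-like and Col25a1 in microglia-like cells) and the 5 higher pairs 3 with the background subtracted, and 5 lower and 2 higher with a minimum of 50 UMIs, which compares fewer pairs. With the highest background share, genes above background went from 13 to 8 in astrocyte-like and from 13 to 4 in microglia-like cells. With the vehicle make-up, the 13 lower genes over all used cells became 4. The other 84 values of these counts stayed within 1.5 times. Of the values of single genes, 563 were similar and 33 moved, among them the log2 ratio of Lamc3 in smooth muscle-like cells, -2.68 against -1.32 in all mural-like cells. The highest class was kept for 38 of 44 genes without the cell with most UMIs of each gene and for 39 to 44 under the other alternatives. The 16 FGF21 endothelial-like and 9 fibroblast-like cells limit what their levels can show.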
